A study of Mus musculus with 9 samples.

Results

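The transcriptome of the wild-type main olfactory epithelium (MOE) was described from the 3 libraries labelled WT_1, WT_2 and WT_3, out of 9 RNA-seq libraries in a study of a mouse enhancer of the trace amine-associated receptor (Taar) genes. All 9 were made from whole MOE of mice labelled C57BL/6 and aged 14 days, with poly(A) selection and a kit that keeps the strand. The other 6 libraries came from mice with TAAR enhancer 2 deleted by CRISPR-Cas9 on 1 allele (het, n = 3) or on both (homo, n = 3), which were littermates of the wild-type mice from the only line kept. The wild-type mice carried no edited allele. The deletion was made in C57BL/6J zygotes, and the study describes its mouse lines in general as being on mixed C57BL/6J and 129 backgrounds. The study used both sexes, and the labels give neither the sex of an animal nor whether tissue was pooled or which replicates shared a litter, so the spread between libraries given here may be partly technical. The account is a baseline: which transcripts were most abundant, how the genes of the neuronal, stem, supporting, secretory and non-neuronal compartments compared in level, and how widely the levels of the receptor genes were spread.

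The MOE lines the back of the nasal cavity and renews itself throughout life. Horizontal basal cells, marked by keratins, are a reserve stem cell, and globose basal cells divide to give neuronal precursors. These pass through an immature stage, marked by growth proteins of the axon, to become mature olfactory sensory neurons (OSNs), each of which as a rule expresses 1 odorant receptor (OR) or Taar gene and signals through the olfactory G protein, adenylyl cyclase and a cyclic nucleotide-gated channel. Sustentacular cells surround the neurons and carry detoxifying enzymes, while glands and the neighbouring nasal mucosa secrete odorant-binding proteins, lipocalins and antimicrobial proteins into the mucus.

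The 3 wild-type libraries held 20527992, 32262005 and 27875736 counts, with at least 1 count in 19765, 20159 and 19902 genes. Levels are given as TPM, a level per exon length scaled to the same total in each library and computed here from the raw counts and the exon length of each gene, so that genes can be compared with each other, for 22710 genes. Of these, 17421 genes (76.7%) had more than 3 counts in every wild-type library, which is called detected below, and 2417 had none in any. A count of 0 allows up to 3 counts, or 0.0930 to 0.146 CPM (counts scaled to the library total). Among the detected genes the median of the mean TPM was 22.2 and the central 80% of genes lay between 1.76 and 108 TPM. The median coefficient of variation (CV, the SD as a percentage of the mean) over the 3 libraries was 16.2%. Protein-coding genes made up 98.6% to 98.8% of the summed level. On a log2(TPM + 1) scale the libraries correlated across the detected genes with Pearson's r of 0.980 (WT_1 and WT_2), 0.966 (WT_2 and WT_3) and 0.954 (WT_1 and WT_3), a description over genes that share the same libraries.

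Secreted proteins of the nasal mucus headed the wild-type transcriptome. The 25 genes with the highest mean TPM held 12.2% of the summed level, and the 74 genes above 1000 TPM held 19.7%. Gm14744, which RefSeq lists under the synonym Obp1f, stood first with 8020, 19624 and 6321 TPM in WT_1, WT_2 and WT_3. Bpifb9b, a member of the BPI fold family of secreted lipid-binding proteins, followed with 17490, 14659 and 1515 TPM. Obp1a, which encodes an odorant-binding protein, had 4663, 15444 and 5176 TPM, and 5430402E10Rik, which lies between those X-linked genes and has the RefSeq synonym OBP2, had 4688, 16534 and 2955 TPM. The 3 X-linked genes were thus all highest in WT_2, above WT_1 and WT_3 by more than the gap between those, and the order of the 4 leading genes depended on the library.

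**Figure D1:**
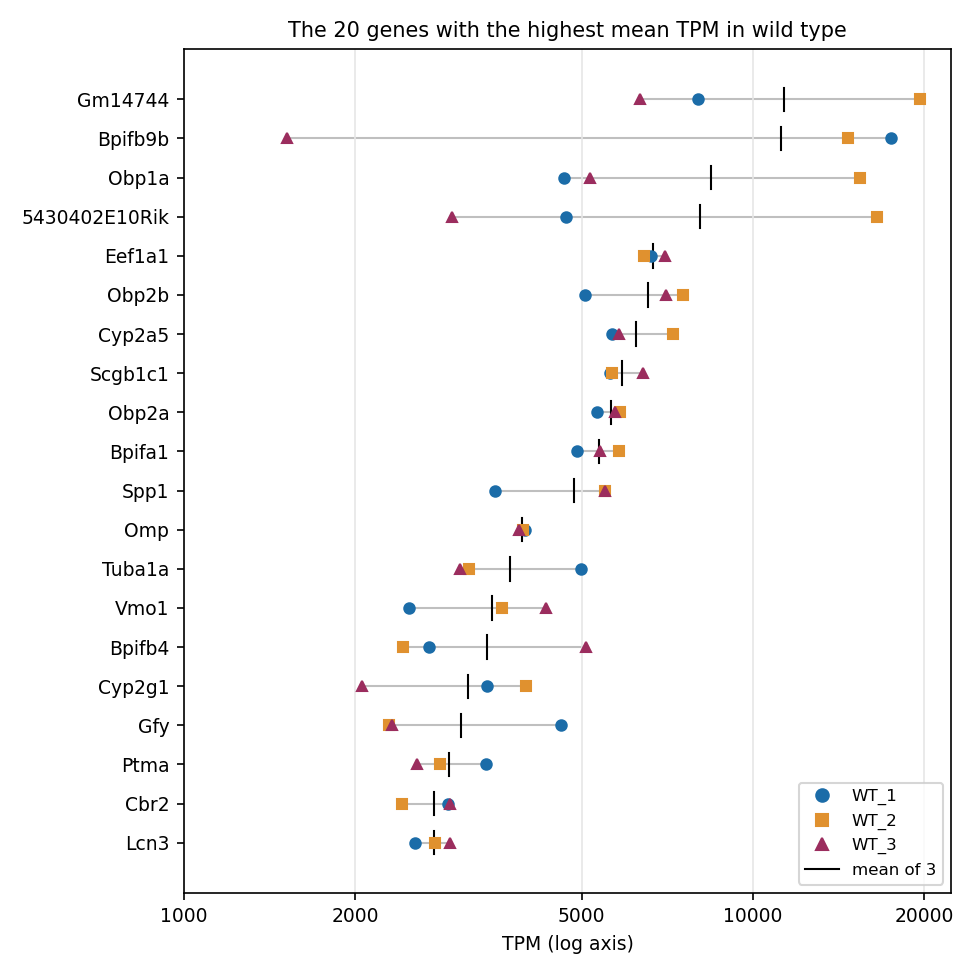
TPM (log axis) of the genes with the highest mean level in wild-type MOE, from Gm14744 at the top of the order to Lcn3; each symbol is 1 library, the black tick is the mean of the 3 libraries and the grey line their range. Omp varied from 3884 to 3967 TPM, while Bpifb9b varied from 1515 to 17490 TPM.

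Below these 4 genes the order was more even. Eef1a1, the translation elongation factor, had 6683 ± 299 TPM (SD, n = 3), and Cyp2a5, a cytochrome P450 of sustentacular cells, had 6233 ± 859 TPM. The secreted proteins Obp2b (6538 ± 1300 TPM), Scgb1c1 (5887 ± 442 TPM), Obp2a (5623 ± 275 TPM) and Bpifa1 (5367 ± 454 TPM) lay close together. The range of each of these 6 genes overlapped that of its neighbours in the order, while Eef1a1 (6427 to 7011 TPM) lay above Scgb1c1, Obp2a and Bpifa1 in all 3 libraries. Spp1, the osteopontin gene of bone, reached 4838 ± 1144 TPM. Omp, which encodes olfactory marker protein and defines mature OSNs, was the first neuronal gene, in position 12 with 3967, 3935 and 3884 TPM and a CV of 1.07%, far below the median CV of detected genes. Gfy, an OSN protein of the Golgi, had 4590, 2292 and 2325 TPM, and S100a5, a calcium-binding protein of OSNs, had 2530, 3288 and 2025 TPM. Tuba1a, Vmo1, Bpifb4, Cyp2g1, Ptma, Cbr2, Lcn3, Sec14l3, Lcn11 and Gpx6 were also among the 25, with mean levels from 2446 to 3736 TPM.

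Ranked by counts without regard to length, long transcripts entered the list. The 10 genes with the highest mean share of counts outside the 25 were Col1a2, Col1a1, Map1b, Sparc, Ddx5, Gnal, Xist, Fstl5, Srrm2 and Eif4g2. Col1a1 and Col1a2 encode type I collagen of bone and connective tissue and had 2171 ± 860 and 1365 ± 371 TPM. Gnal, which encodes the olfactory G protein subunit, had 708 ± 54.3 TPM. No single gene dominated a library: the most abundant gene held 0.899% of the counts of WT_1 and 0.751% of those of WT_2, where it was Bpifb9b, and 0.431% of those of WT_3, where it was Eef1a1. The 100 most abundant genes held 13.5%, 13.7% and 12.8% of the counts.

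Several of the leading genes have close copies, and a count for them is uncertain because the way reads matching several genes were counted is not given in the sources used here. In the GENCODE annotation, 72.7% of the 50-base stretches of the longest Gm14744 transcript also occur in another gene, chiefly 5430402E10Rik. The share was 71.4% for Bpifb9b, chiefly with Bpifb9a, 72.9% for Tuba1a with Tuba1c, 59.2% for Eef1a1 with pseudogenes, and 40.8% for Cyp2a5 with Cyp2a4. The promoters show the same kinship. In the 200 bases before the annotated start, Gm14744 and 5430402E10Rik were 99.0% identical in a global alignment, Bpifb9b and Bpifb9a were 88.5% identical, and the unrelated pair Obp1a and Bpifb9b were 45.1% identical. Obp1a differed from its neighbours, with 51.8% identity to Gm14744 and 50.7% to 5430402E10Rik. The upstream stretches of 4 of these genes are printed here because they belong to genes that moved together between libraries: Obp1a and Gm14744 highest in WT_2, Bpifb9b and Bpifb9a lowest in WT_3. Each runs 5′ to 3′ on the strand of the gene in build GRCm38.p6 and ends at the base before the RefSeq start. The GENCODE start of Bpifb9b, at base 154307227, lies inside its stretch. Capitals mark the letters TATAAA, searched on both strands, which are found in 12.8% of 17220 promoters of 300 bases. They are Obp1a at chrX:78091375-78091574 (minus strand), Gm14744 at chrX:77864558-77864757 (plus strand), Bpifb9b at chr2:154307044-154307243 (plus strand) and Bpifb9a at chr2:154257679-154257878 (plus strand).
Obp1a: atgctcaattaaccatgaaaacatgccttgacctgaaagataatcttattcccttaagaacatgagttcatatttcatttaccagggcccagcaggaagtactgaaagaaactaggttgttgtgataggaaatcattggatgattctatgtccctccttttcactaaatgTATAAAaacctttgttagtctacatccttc
Gm14744: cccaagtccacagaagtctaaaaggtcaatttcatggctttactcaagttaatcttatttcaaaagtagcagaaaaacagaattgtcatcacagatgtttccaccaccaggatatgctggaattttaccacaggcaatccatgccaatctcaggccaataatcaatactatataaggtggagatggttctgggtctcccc
Bpifb9b: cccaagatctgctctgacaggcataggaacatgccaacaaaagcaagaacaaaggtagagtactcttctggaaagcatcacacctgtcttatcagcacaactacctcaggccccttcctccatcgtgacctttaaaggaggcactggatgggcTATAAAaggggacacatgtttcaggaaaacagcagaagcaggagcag
Bpifb9a: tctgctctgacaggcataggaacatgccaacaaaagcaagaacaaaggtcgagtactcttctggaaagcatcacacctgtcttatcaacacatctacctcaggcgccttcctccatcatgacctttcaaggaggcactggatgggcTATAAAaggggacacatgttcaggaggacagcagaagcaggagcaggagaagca

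The letters TATAAA begin 30 bases before the RefSeq start of Obp1a, 47 bases before that of Bpifb9b and 54 bases before that of Bpifb9a. In the Gm14744 stretch they are not found in this window. A match is a description of the sequence and not a measured binding site.

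By summed level the marker lists placed the secretory compartment first, the supporting and mature neuronal compartments next, and the stem cell compartment lower. The summed level of the gland and mucus list (18 genes) was 39911, 38709 and 29904 TPM, and that of the odorant-binding and lipocalin list (6 genes with a level) was 20292, 36678 and 23616 TPM. The sustentacular list (10 genes) reached 16432, 18609 and 17185 TPM and the mature OSN list (17 genes) 17684, 16020 and 14304 TPM. The gland list was above the odorant-binding list in all 3 libraries although their ranges overlapped, and the sustentacular and mature OSN lists cannot be ordered, the first being higher in WT_2 and WT_3 and the second in WT_1. Sums depend on how many genes a list holds. By median these lists ran from odorant-binding and lipocalin (4185 TPM) through sustentacular (1216 TPM) and gland and mucus (963 TPM) to mature OSN (444 TPM). The gland and mucus median was below the sustentacular median in each library. In a bulk sample fewer cells of a type cannot be told apart from less RNA per cell.

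**Figure D2:**
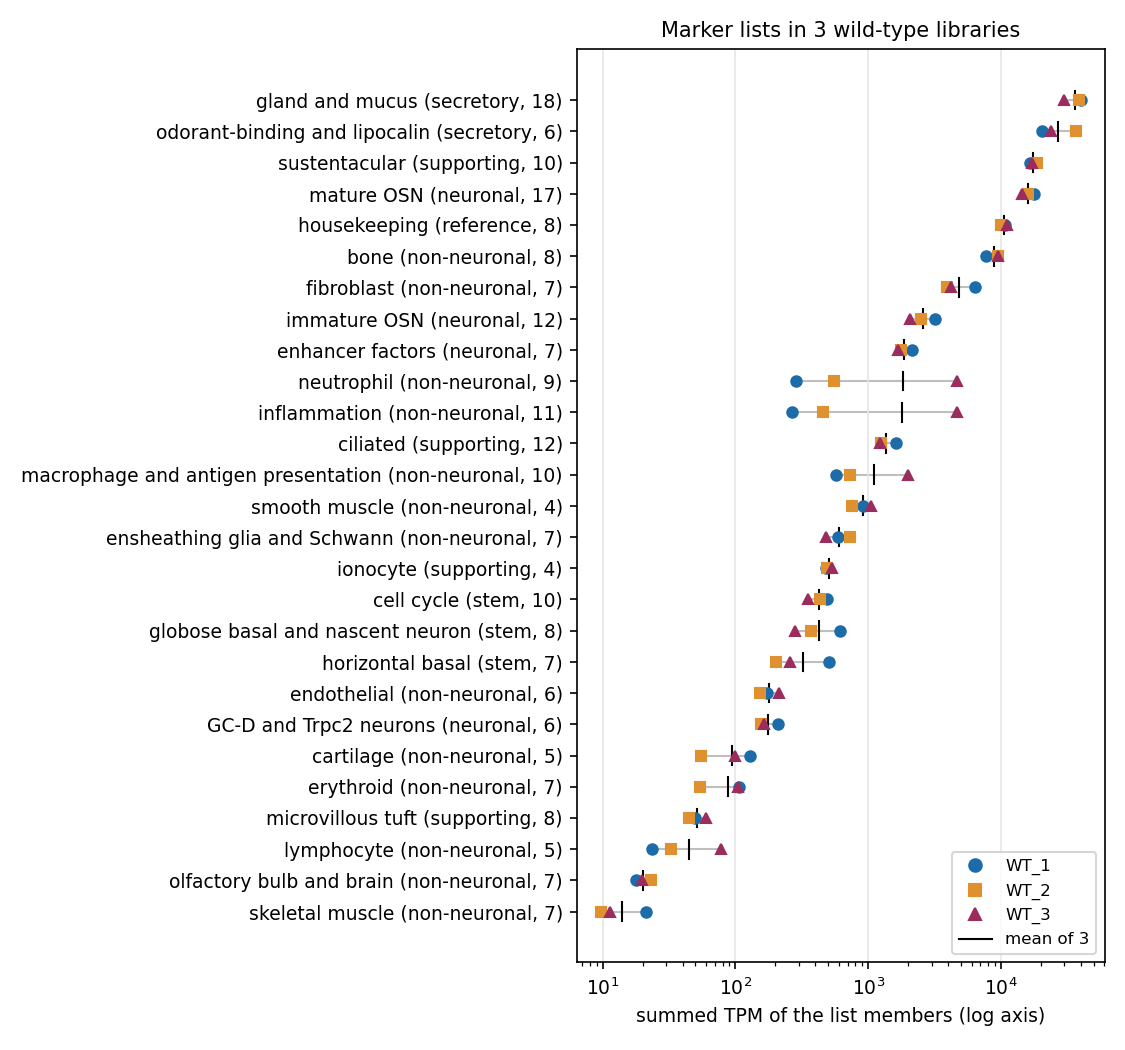
Summed TPM (log axis) of the members of each marker list in the 3 wild-type libraries, with the compartment and number of genes in brackets; the black tick is the mean and the grey line the range. Secretory lists stand at the top, and the neutrophil and inflammation lists show the widest range, from 287 to 4687 TPM and from 267 to 4667 TPM.

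All 17 mature OSN genes were detected, with a median of 444 TPM that exceeded 98.7% of detected genes. Several genes of the olfactory signalling cascade were steady. Adcy3, the adenylyl cyclase, had 325, 340 and 315 TPM, and Cnga2, the main subunit of the transduction channel, had 667, 749 and 704 TPM. The other channel subunits Cnga4 (249 ± 16.1 TPM) and Cngb1 (109 ± 3.40 TPM) were lower, as was the calcium-activated chloride channel Ano2 (193 ± 24.8 TPM). In these 3 libraries Cnga2 was above Cnga4 and Cnga4 above Cngb1, with no overlap. Stoml3, a membrane protein of the OSN cilium, had 1516 ± 101 TPM. Rtp1 and Rtp2, which help receptors to reach the cell surface, had 635 ± 63.3 and 382 ± 30.7 TPM. The phosphodiesterase Pde1c, the exchanger Slc24a4 and the G protein chaperone Ric8b varied more, with CVs of 20.9%, 18.5% and 18.2% against the 16.2% of the median detected gene. Gng13, the G protein gamma subunit, varied most in the list, with 1063 TPM in WT_1 against 418 and 379 TPM in WT_2 and WT_3.

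The immature OSN genes were all detected (12 of 12, median 132 TPM) and summed to 3185, 2487 and 2049 TPM. Tubb3, a neuronal tubulin, led with 602 ± 170 TPM, followed by Gap43, a growth cone protein, with 769, 501 and 387 TPM. The mature list exceeded the immature list 5.55, 6.44 and 6.98 times in the 3 libraries. The 7 transcription factors and cofactors of the enhancer factor list, several of which are known to bind OR enhancers, were detected at a median of 231 TPM: Ebf4 at 495 ± 26.2 TPM, Ebf2 at 361 ± 29.6 TPM, Ebf3 at 276 ± 44.9 TPM, Ldb1, the bridging cofactor, at 222 ± 36.9 TPM, Ebf1 at 151 ± 22.6 TPM and Emx2 at 127 ± 38.4 TPM. Lhx2, a homeodomain factor, had 340, 189 and 164 TPM, with WT_1 again the highest.

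Stem and progenitor genes were present at levels near the middle of the transcriptome. The globose basal and nascent neuron list (8 of 8 detected, median 35.4 TPM, above 63.5% of detected genes) summed to 617, 372 and 279 TPM, and the cell cycle list (10 of 10, median 25.9 TPM) to 488, 434 and 350 TPM. Their ranges overlapped. Neurog1, a proneural factor of neuronal precursors, had 56.8, 14.8 and 13.4 TPM. Mki67, a marker of cycling cells, had 109, 103 and 64.35 TPM and Pcna, a DNA replication factor, 125, 121 and 116 TPM. The horizontal basal list (7 of 7, median 21.7 TPM) summed to 506, 203 and 256 TPM. Within it Trp63, the factor that maintains these cells, was even at 15.8, 13.4 and 14.5 TPM, while Krt15 was uneven at 185, 40.1 and 18.1 TPM and Krt5 had 183, 69.5 and 77.3 TPM.

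WT_1 was the library with the highest summed progenitor and basal cell levels, though not for every gene. Of the genes with a mean count of at least 10, 2.21% were more than 2-fold above the mean of the other libraries in WT_1 and 5.61% more than 2-fold below. The same shares were 1.1% and 4.22% in WT_2 and 6.13% and 3.06% in WT_3. Against these, 3 of 8 globose basal genes (Neurog1 and Insm1 among them) and 2 of 7 horizontal basal genes (Krt5 and Krt15) were above in WT_1. Icam1, of the horizontal basal list, was more than 2-fold below in WT_1, but close to its level in WT_2. WT_3, its highest library, raised the mean it was compared with. Lgr5, a progenitor marker of the globose basal list, had 4.62, 6.17 and 8.30 TPM. Libraries numbered 1 also had the highest Neurog1 and Gng13 of their genotype among the het and homo mice, for example 5202, 5481 and 5202 normalized counts of Gng13 (counts divided by the authors' size factors) in WT_1, het_1 and homo_1 against 1640 to 2677 in the other 6 libraries. Genes of the raw table that have no normalized value, of which the ribosomal precursor Rn45s had the most counts, took 0.0600%, 0.0582% and 0.0589% of the counts of the libraries numbered 1 and 0.129% to 0.175% of the others. The genes that stood above in WT_1 had a median exon length of 2388.5 bases against 4141 for all genes compared and 2645 to 3213 for the other sets that stood apart. What the number 1 stands for is not given in the labels, and the part of these features in the progenitor levels was not tested.

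Among the supporting cells, the sustentacular genes had a median of 1216 TPM, above 99.6% of detected genes. Cyp2a5 and Cyp2g1 (3153 ± 996 TPM) led, followed by the carbonyl reductase Cbr2 (2753 ± 294 TPM), the sulfotransferase Sult1c1 (1132, 1347 and 2615 TPM) and Ugt2a1, a glucuronosyltransferase of odorant clearance (1523 ± 272 TPM), which shares 97.0% of its 50-base stretches with Ugt2a2. The summed sustentacular level had a CV of 6.35%, beside 5.59% for housekeeping genes, and a CV of 8.79% without WT_3. Single members were less even, with a median CV of 20.7% beside 4.70% for housekeeping genes. Some moved in opposite directions, so that the sum hides part of the spread. Sult1c1 was highest in WT_3, where Cyp2g1 was lowest (3408, 3996 and 2055 TPM). Genes of motile cilia, which respiratory-type cells carry, were all detected (12 of 12) and summed to 1612, 1259 and 1223 TPM, with Dynlrb2 at 321 ± 53.5 TPM and the master regulator Foxj1 at 289, 145 and 159 TPM. Ionocyte genes summed to 481, 493 and 538 TPM, of which Coch gave 306 ± 60.6 TPM and Cftr, the chloride channel, 18.4 ± 4.19 TPM. Microvillous tuft cell genes were scarce. Only 6 of 8 were detected, the median was 4.70 TPM, and Trpm5, the cation channel that defines these cells, had 2.66, 3.34 and 4.09 TPM.

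The secretory lists held both steady and variable abundant genes. Bpifb3 (1904 ± 121 TPM), Bpifb6 (1735 ± 187 TPM), Lcn3 (2748 ± 194 TPM) and Dmbt1 (208 ± 33.1 TPM) differed little between the wild-type libraries. For Dmbt1 and Lcn3 this did not hold in the whole series. Dmbt1 ran from 1517 (homo_2) to 14152 (het_1) normalized counts and Lcn3 from 4075 (het_2) to 13087 (het_1). Of the leading genes, Obp2a ran from 9180 (homo_3) to 32040 (het_1) and Obp2b from 11147 (homo_2) to 34524 (WT_2). Lcn4 had 170, 1023 and 1415 TPM and Lcn11 2536, 4086 and 1349 TPM. Muc5b, a gel-forming mucin of glands, had 116, 148 and 633 TPM, whereas Muc5ac, the mucin of goblet cells, had 20.5, 7.67 and 23.7 TPM. Bpifb2 was at or under 3 counts in at least 1 library and Scgb1a1, the secretoglobin of airway club cells, was listed at 0 in all 3.

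Non-neuronal tissue was well represented, with bone and connective tissue ahead of vessels, glia and muscle. The bone list was detected in full (8 of 8) and summed to 7738, 9448 and 9430 TPM, including Ibsp (1335 ± 212 TPM), a matrix protein of mineralised bone, and the osteoclast protease Ctsk (1121 ± 95.6 TPM). Spp1 alone gave 3516, 5492 and 5505 TPM of these sums. It was lower in WT_1 by more than the sum was, so the low sum of WT_1 came from this gene. The fibroblast list summed to 6421, 3929 and 4220 TPM. Cartilage was low by comparison at 128, 55.3 and 98.7 TPM, with Col2a1, the cartilage collagen, at 56.8, 11.4 and 23.3 TPM. Ensheathing glia and Schwann cell genes summed to 593, 735 and 483 TPM, led by Fabp7, a lipid-binding protein of ensheathing glia, at 325 ± 110 TPM. Smooth muscle genes summed to 919, 754 and 1050 TPM and endothelial genes to 174, 154 and 213 TPM. Skeletal muscle genes were near the limit of detection (21.1, 9.79 and 11.4 TPM in sum, 5 of 7 detected).

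Genes of the olfactory bulb and brain were nearly absent, as a check on the dissection. The list of 7 summed to 17.9, 23.1 and 19.8 TPM and was 985, 692.2 and 723 times below the mature OSN list. Slc17a7, the vesicular glutamate transporter of bulb projection neurons, had 0.761 ± 0.454 TPM, and Th, the dopamine-synthesis enzyme of bulb interneurons, had 1.85 TPM in WT_2 and was listed at 0 in WT_1 and WT_3. The largest member was Gad2 at 9.92 ± 2.97 TPM. The list of the rarer sensory neurons (GC-D and Trpc2 neurons, 6 genes) summed to 210, 157 and 163 TPM, of which Car2, a carbonic anhydrase that other cells express too, gave 172, 121 and 117 TPM. Gucy2d, the receptor guanylyl cyclase of GC-D neurons, had 4.69 ± 1.51 TPM and Gucy1b2 5.93 ± 0.957 TPM, while Trpc2 was listed at 0 in all 3 libraries, where 98.3% of its 50-base stretches also belong to the overlapping gene Xntrpc. Of 209 Vmn1r genes with a length 2 were detected, and 11 of 125 Vmn2r genes.

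Some abundant blood and housekeeping genes were listed at 0. Hba-a1, Hba-a2, Hbb-bs and Hbb-bt, the adult globins, had no count in any wild-type library, while the erythroid genes Alas2 (33.4 ± 7.62 TPM) and Slc4a1 (31.1 ± 15.1 TPM) were detected. The share of 50-base stretches found in another annotated gene was 67.5%, 86.9%, 65.8% and 58.3% for the 4 globins. No mitochondrially encoded gene is in the tables, and 4 of 100 ribosomal protein genes, Rpl26 among them, were listed at 0, against a median of 245 TPM for the group. The cause of these zeros was not tested.

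Genes of neutrophils and acute inflammation set WT_3 apart from the other wild-type libraries. The neutrophil list (9 of 9 detected) summed to 287, 548 and 4687 TPM, and the inflammation list (7 of 11 detected) to 267, 457 and 4667 TPM. All 9 neutrophil genes and all 9 inflammation genes with a mean count of at least 10 were more than 2-fold above in WT_3, where 6.13% of genes were. The lists were chosen with earlier results of these data known, so such counts describe the members and are not independent support. The macrophage and antigen presentation list followed, at 576, 727 and 1993 TPM with 6 of 10 genes above, and the lymphocyte list at 23.4, 32.9 and 78.0 TPM with 5 of 5. No mature or immature OSN gene and none of the 10 cell cycle genes passed that limit in WT_3 in either direction. Of the globose basal genes 3 of 8 (Neurog1 and Insm1 among them) were more than 2-fold below, where 3.06% of genes were. The mean they were compared with included WT_1, the highest library for Neurog1 and Insm1. Neurog1 had 607, 157 and 144 normalized counts and Insm1 3869, 2101 and 1510, so WT_3 was close to WT_2 for Neurog1.

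**Figure D3:**
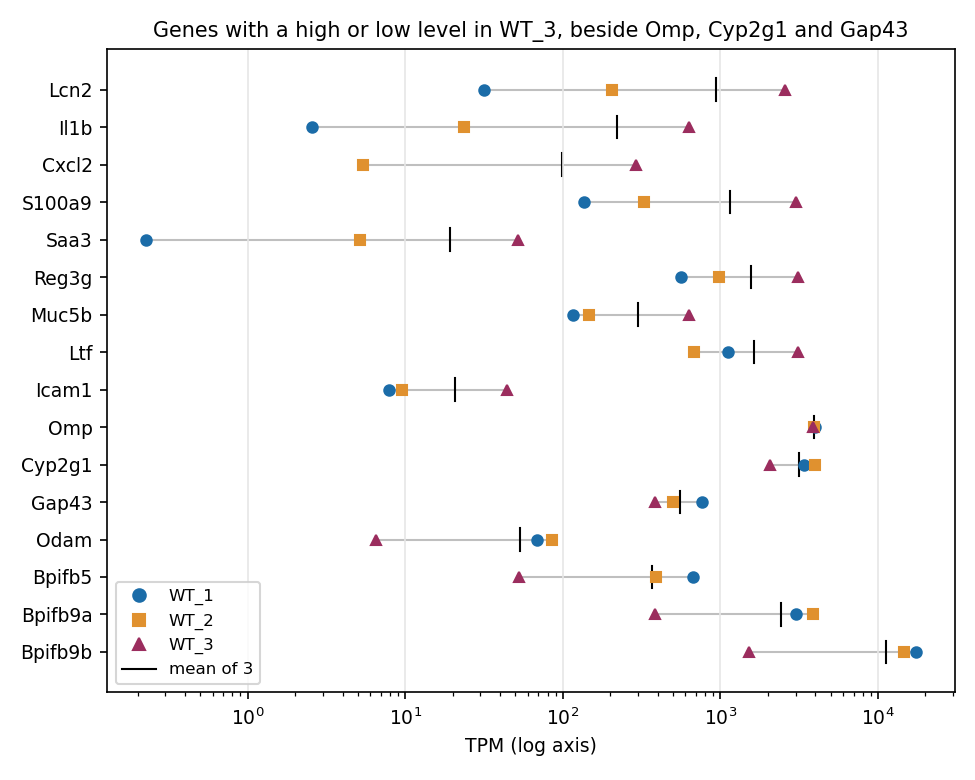
TPM (log axis) of 13 genes with a high or low level in WT_3 and of Omp, Cyp2g1 and Gap43; symbols are libraries, the black tick is the mean and the grey line the range of values above 0. Cxcl2 had no count in WT_1 and is not drawn there. Lcn2 rises to 2580 TPM and Bpifb9b drops to 1515 TPM in WT_3, while Omp stays between 3884 and 3967 TPM.

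Lcn2, an iron-sequestering protein of the innate response, had 31.6, 206 and 2580 TPM. Il1b, the interleukin, had 2.57, 23.7 and 633 TPM, and S100a9, a calcium-binding protein of neutrophils, had 137, 326 and 2998 TPM. WT_3 was highest for each and WT_2 was intermediate. Of the 12 genes with the largest ratio between libraries, 9 belonged to this response. Cxcl2 had 0, 89 and 4166 counts, Irg1 had 1, 121 and 7165, and Ccl3 had 2, 65 and 2103. Clec4e had 3, 57 and 2580 and Il6 had 1, 50 and 1399, beside Il1b, Saa3, Osm and Mefv. Only genes with a mean of at least 10 TPM and 100 counts were ranked. Cxcl2, Ccl3, Clec4e and Il6 were under 100 counts in WT_1 and WT_2 and entered through WT_3 alone. The 9 of 12 is therefore partly set by this limit and is not separate support for WT_3 standing apart. The antimicrobial genes Reg3g (561, 977 and 3126 TPM) and Ltf (1116, 679 and 3113 TPM) and the adhesion molecule Icam1 (7.865, 9.60 and 44.5 TPM), listed here as a horizontal basal marker, were also highest in WT_3.

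A set of secreted proteins had its lowest level in the same library. Bpifb9a had 3021, 3897 and 383 TPM, Bpifb5 670, 388 and 52.8 TPM, and Odam, an enamel-associated secreted protein, 68.9, 85.9 and 6.55 TPM. With Bpifb9b, these 4 genes of the gland and mucus list were more than 2-fold below in WT_3, where 3.06% of genes were, and 4 others of the 16 compared (Bpifb1, Muc5b, Reg3g and Ltf) were more than 2-fold above, while the related genes Bpifb3, Bpifb6 and Bpifa1 were not. The upstream stretch of Bpifb5 was 49.8% identical to that of Bpifb9b. Sec14l3 was also lowest in WT_3, at 1194 TPM against 3356 and 3571. Among all 9 libraries WT_3 had the highest normalized count of Lcn2 (43337 against 438 to 7268, the next being het_3) and the lowest of Bpifb9b (20051 against 37235 to 228857), so neither level was typical of the series.

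WT_3 also differed in the transcripts that mark sex. Xist, the non-coding RNA of the inactive X chromosome, had 50117 and 99540 counts in WT_1 and WT_2 and 38 in WT_3, while the Y-linked genes Ddx3y, Eif2s3y, Kdm5d and Uty had 2467, 2523, 1763 and 1173 counts in WT_3 and at most 2 in the others. Within the wild-type group the 2 differences cannot be told apart. In the whole series 4 libraries had Ddx3y and low Xist, and their normalized counts of Lcn2 were 43337 (WT_3), 7268 (het_3), 501 (het_1) and 474 (homo_1), while the other 5 had 438 to 3388, so the ranges overlapped. Without WT_3, the neutrophil list averaged 417 TPM in place of 1841 and the inflammation list 362 in place of 1797, the mature OSN list 16852 in place of 16003, and the gland and mucus list 39310 in place of 36175.

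Nearly the whole OR repertoire was present in each wild-type library. Of 1125 OR genes in the tables, 1056 (93.9%) were detected, 43 were at or under 3 counts in every library, of which 23 had no count in any, and 26 were in between. The share detected among all genes with a level was 76.7%. Together OR genes took 0.330%, 0.386% and 0.333% of the counts, or 4607, 5237 and 4637 TPM. With the coding length in place of the exon length, which includes long untranslated exons (median 2936.5 against 939 bases), the sums were 13897, 16271 and 14210 TPM. Which exons were counted is not given in the sources used here, so OR levels are compared below as normalized counts. These are comparable between OR genes where coding exons were counted, whose lengths are near-equal (924 to 966 bases for the central 80%), and less so where untranslated exons were counted too.

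OR levels were spread continuously over about an order of magnitude. In the mean of 3 libraries the 10th, 25th, 50th, 75th and 90th percentiles were 13.1, 29.6, 58.3, 98.5 and 161 normalized counts, and the ratio of the 90th to the 10th percentile was 12.3. The medians of the libraries were 52.1, 61.2 and 55.9. The highest 10% of the genes, 113, held 34.8% of the summed OR level, 214 genes made up 50% of it, and the Gini coefficient, which is 0 when all genes are equal and 1 when a single gene holds everything, was 0.480. By library the coefficient was 0.490, 0.495 and 0.486. On the TPM scale the top 10% held 35.0% and the coefficient was 0.476.

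**Figure D4:**
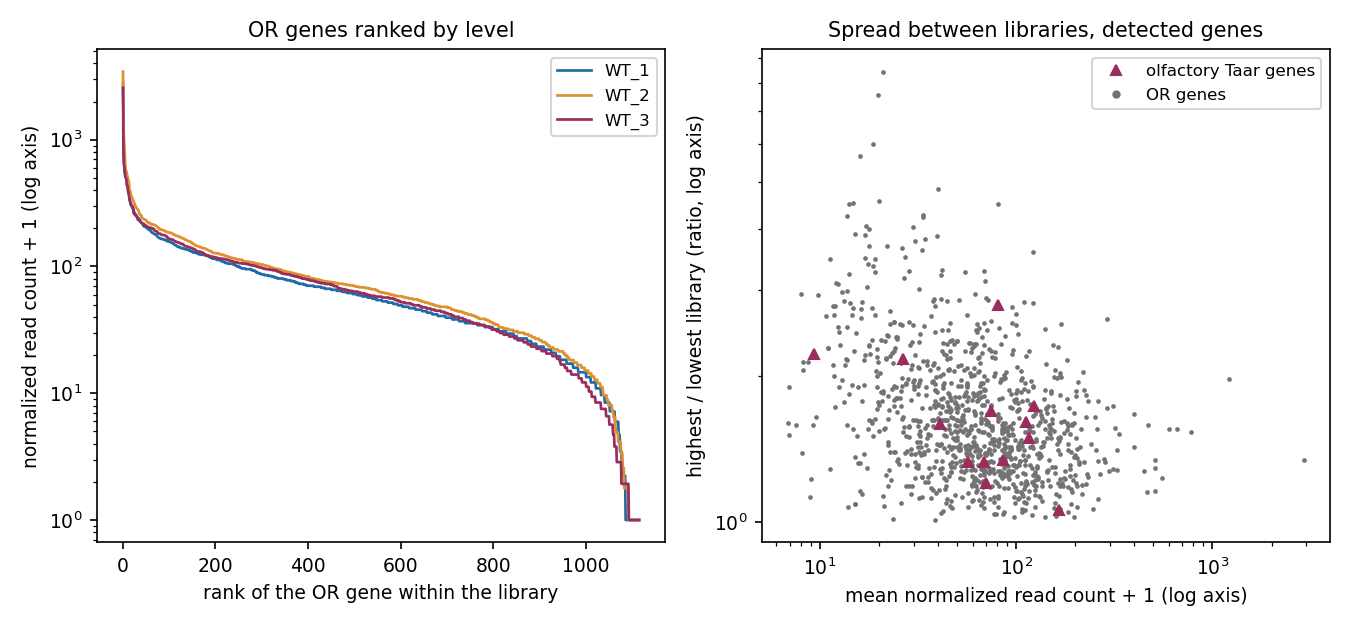
Left, OR genes ranked by normalized read count + 1 (log axis) within each wild-type library. Right, ratio of the highest to the lowest library against the mean normalized read count + 1 (both log axes) for detected OR and olfactory Taar genes, each point a gene. The 3 rank curves run close together, with medians from 52.1 to 61.2, and ratios are largest among genes of low count.

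The gene at the top stood clear of the rest. Olfr536, on chromosome 7 (140500849 to 140507396, GRCm38, GENCODE), had 2767, 3441 and 2566 normalized counts, 50.2 times the median OR gene and 3.27% of the whole OR level. Its lowest library exceeded the highest library of the second gene, Olfr1507 on chromosome 14, which had 1518, 1333 and 769. From there on every gene overlapped its neighbour in the order: Olfr1372-ps1 (776 ± 187), Olfr727 (659 ± 157), Olfr166 (600.3 ± 155), Olfr309 (555 ± 58.2), Olfr726 (509 ± 65.5), Olfr741 (508 ± 73.8), Olfr533 (506 ± 40.2) and Olfr15 (470 ± 107), each in normalized counts (SD, n = 3). Olfr1372-ps1 is annotated as a transcribed pseudogene. Ranked by TPM, Olfr449, Olfr969, Olfr672 and Olfr19 stood among the first 10 in place of Olfr1372-ps1, Olfr166, Olfr741 and Olfr15, and Olfr449 had 496, 457 and 430.3 normalized counts. Olfr536 and Olfr1507 led on both scales. Of the genes leading by counts, 4 (Olfr1507, Olfr727, Olfr726 and Olfr741) lie on chromosome 14, and Olfr533 lies near Olfr536 on chromosome 7. Among OR genes often used as probes, Olfr578 had 207, 184 and 218 normalized counts and Olfr552 122, 111 and 133.

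The upstream stretch of Olfr536 is printed because this gene alone is set apart by its level. It lies at chr7:140507319-140507518 on the minus strand (GRCm38.p6) and ends at the base before the RefSeq start. The gene coordinates given above are those of GENCODE, whose start at base 140507396 lies inside this stretch. Capitals mark matches to TCCCNNGG, the core letters bound by the EBF factors described above, on either strand.
Olfr536: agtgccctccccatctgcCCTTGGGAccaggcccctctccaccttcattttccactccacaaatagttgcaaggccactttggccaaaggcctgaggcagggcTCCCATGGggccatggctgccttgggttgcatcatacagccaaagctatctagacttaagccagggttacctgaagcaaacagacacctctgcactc

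The 2 matches begin 182 and 97 bases before the RefSeq start. These letters are found in 9.65% of the 933 OR promoters of 300 bases that could be matched and in 24.3% of 17220 promoters of all genes. Within the OR genes 10.3%, 9.44%, 8.15% and 10.7% of promoters held them from the lowest to the highest 25% of OR genes by level. A/T-rich motifs were commoner in OR promoters than in all promoters: TATAAA was found in 41.1% against 12.8%, TAATGA in 28.8% against 8.51% and TAATTA, a core of homeodomain sites, in 18.6% against 4.51%. In the same 4 groups of OR genes, from low to high, TATAAA stood in 45.7%, 40.8%, 42.9% and 34.8% and TAATTA in 20.1%, 21.5%, 20.2% and 12.9% of promoters. OR genes with and without TATAAA had median levels of 55.1 and 60.0 normalized counts. In WT_1, WT_2 and WT_3 the medians were 45.9, 58.8 and 50.3 with it and 56.4, 65.5 and 58.7 without it. These shares count matches to letters around annotated starts. Base composition was not computed, and no test was made on the shares.

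Median OR levels differed between chromosomes, and levels on the same chromosome were spread widely too. Among chromosomes with at least 10 OR genes, the 39 on chromosome 14 had the highest median of the gene means, 94.0 normalized counts, while the 135 on chromosome 9 and the 25 on chromosome 4 had the lowest, both 43.0. In WT_1, WT_2 and WT_3 the medians were 81.9, 96.4 and 88.5 on chromosome 14 and 39.7, 45.5 and 45.6 on chromosome 9, so chromosome 14 was above chromosome 9 in all 3. Chromosome 13 (13 genes) had 83.1, 87.0 and 92.2, above chromosome 14 in WT_1 and WT_3, and chromosome 4 had 37.2, 36.1 and 43.8, below chromosome 9 in all 3. The 287 genes of chromosome 2 had a median of 49.9 and the 236 of chromosome 7 one of 63.3. Class I OR genes, the group of fish-like receptors taken here as Olfr543 to Olfr692 on chromosome 7, had a median of 62.6 (115 genes) against 58.1 for the other OR genes. By library the class I medians were 52.1, 66.6 and 71.7 against 52.1, 61.2 and 55.0, equal in WT_1 and higher in WT_2 and WT_3. Of 106 class I genes with a mean count of at least 10, 10 were more than 2-fold below the other libraries in WT_1, where 5.61% of all genes were. Annotated OR pseudogenes (20) had a median of 15.8.

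**Figure D5:**
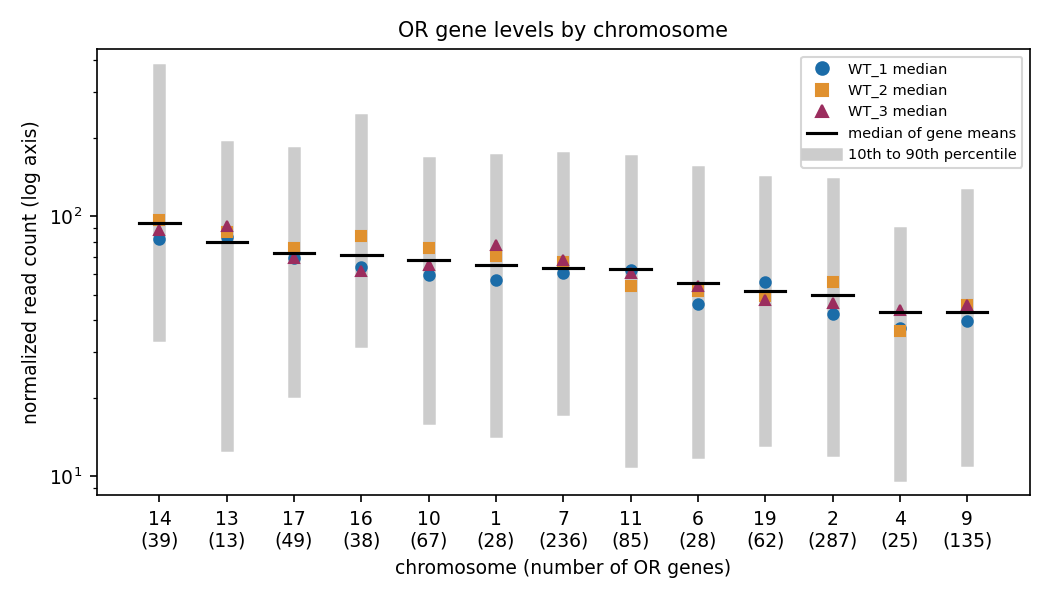
Normalized read counts of OR genes (log axis) by chromosome, for chromosomes with at least 10 OR genes, whose number is in brackets. Symbols are the median of each library, the black line is the median of the gene means and the grey bar spans their 10th to 90th percentile; the medians fall from 94.0 on chromosome 14 to 43.0 on chromosome 9, while each bar spans a wider range than that.

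At the median, OR genes varied more between libraries than detected genes as a whole (16.2%). The median CV of detected OR genes was 22.9% on normalized counts, and 23.6% on TPM for OR genes with a length and any count. It lay between the median CVs of the mature OSN list (8.03%) and the immature OSN list (25.2%), which, like the 16.2%, are on TPM. Counting error was not computed for these other sets, whose read depth differs from that of OR genes. Counting error alone gives 12.3% at the OR median of 65.7 counts, and the median ratio between the highest and the lowest library was 1.56. Across 1054 detected OR genes Pearson's r on the log2 scale was 0.903 (WT_1 and WT_2), 0.924 (WT_2 and WT_3) and 0.877 (WT_1 and WT_3). Among OR genes with a mean of at least 100 counts, the ratio was largest for Olfr110, at 48.4, 174 and 139 normalized counts, where 32.4% of the 50-base stretches occur in another gene, chiefly Olfr111. Olfr728 had 58.3, 165 and 101, Olfr976 47.1, 104 and 130, and Olfr1193 53.3, 143 and 99.7. In these 4 genes WT_1 was the lowest, while in Olfr173 (174, 126 and 61.5) it was the highest. More than 2-fold below the mean of the others were 61 OR genes in WT_1, 13 in WT_2 and 62 in WT_3, out of 1041. Of all genes compared, 5.61%, 4.22% and 3.06% were. More than 2-fold above were 29, 31 and 9 OR genes, and 2.21%, 1.1% and 6.13% of all genes. The 13 below in WT_2 and the 9 above in WT_3 fell under these shares.

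The 14 olfactory Taar genes, which detect volatile amines, had levels within the range of the OR genes. Their median was 71.0 normalized counts beside 58.3 for OR genes, but 10.8 TPM beside 3.04 TPM by exon length, where the 90th percentile of OR genes was 8.74 TPM, and 13 of 14 were detected. Taar6 was the highest, with 166, 168 and 158, and Taar8c the lowest, with 3.72, 3.92 and 7.45. The lowest library of Taar6 exceeded the highest of the next genes. Taar7b (84.3, 134 and 146) and Taar7d (89.3, 123 and 133) came next and their ranges overlapped. Taar1, which is not counted among the olfactory members, had 1 count in WT_3 and none in WT_1 and WT_2. Taar genes contributed 1.03%, 1.07% and 1.29% of the receptor counts. Within the Taar7 and Taar8 subfamilies 29.5% to 72.5% of the 50-base stretches are shared, so counts of single members are uncertain.

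The wild-type baseline was then compared with the 6 libraries that carried the deletion. In edgeR's quasi-likelihood test of WT against the mean of het and homo, 1 of 19775 genes was called at an adjusted p under 0.05 and a fold change over 1.5 (0.00506% of genes). It was Taar6, which was higher in WT by 1.87 ± 0.14 (SE) on the log2 scale (edgeR, Benjamini-Hochberg adjusted p = 0.00393). Its normalized counts were 166, 168 and 158 in WT, 115, 112 and 133 in het and 16.0, 15.4 and 18.7 in homo. The log2 difference averages over these unlike genotypes and describes neither of them. The study's own test of homo against WT found lower Taar3, Taar5, Taar6, Taar7a and Taar9. Without WT_2 the adjusted p of Taar6 was 0.0516 in edgeR and no gene was called. None of 219 marker list genes was called, though 22 had an unadjusted p under 0.05, and none of 1088 OR genes, of which 37 did. Over all genes 812 did, and of the 14 olfactory Taar genes 8 did. DESeq2's Wald test called 5 genes, all of them Taar genes (Taar3, Taar5, Taar6, Taar7a and Taar9), and no OR or list gene, of which 30 and 23 had an unadjusted p under 0.05, as did 821 genes in all. The 3 wild-type libraries had a biological coefficient of variation of 30.2% in edgeR, estimated over 18690 genes, and WT_3 was one of them. Without WT_3 the edgeR calls were again Taar6 alone, with 14 of 218 list genes, 25 of 1086 OR genes and 293 of 19613 genes in all at an unadjusted p under 0.05. A count of 0 here therefore does not show that wild-type and deletion-carrying epithelium had equal levels of these genes.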

How the data were processed

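Poly(A) RNA of whole MOE was sequenced from 9 libraries (WT, het and homo, 3 each). The authors trimmed reads with Trimmomatic 0.36, aligned them to GRCm38/mm10 with HISAT2 2.1.0 and deposited raw gene counts made with featureCounts (Subread 1.6.2). Normalized counts were deposited by the authors too, as a signal equal to the counts divided by the size factors of DESeq2 1.20.0. The annotation, the strand setting and the treatment of reads matching several genes are not given in the sources used here. The deposited tables hold 24421 and 23129 genes, of which 22710 in both received an exon length from GENCODE M21 (647 through a synonym). TPM were computed from the raw counts and these lengths.

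The lists, members and tests were chosen with earlier results of these data known. Named were the 25 genes with the highest mean TPM, the next 10 by count share, the list members, the 10 OR genes with the highest mean TPM with Olfr1507, Olfr578 and Olfr552, the Taar genes, up to 5 called genes, and the genes with the largest ratio of highest to lowest library (12, with a mean of at least 10 TPM and 100 counts, and 5 OR genes with a mean of at least 100 counts). The OR genes leading by normalized counts, Rpl26, Rn45s, Mir429, Mir3064 and the genes that share sequence were named after their values were seen. The wild-type levels carry no test. WT was compared with the mean of het and homo by edgeR 4.0.16 quasi-likelihood (limma 3.58.1, R 4.3.3, TMM, at least 10 counts in sum), with DESeq2 1.42.0 as an alternative. A gene was called at a Benjamini-Hochberg adjusted p under 0.05 and a fold over 1.5. Intervals from counts cover counting error only. Sequences came from RefSeq promoters on GRCm38.p6.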

Additional observations from a re-analysis of the deposited data

Results flagged for a closer look

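The raw count table holds 1292 genes without a normalized value, and 125 of them had more than 3 counts in every wild-type library, a signal outside the main measurement. The 1292 genes together took 0.0600%, 0.152% and 0.157% of the counts of WT_1, WT_2 and WT_3. Most came from Rn45s, the ribosomal RNA precursor, with 7442, 40398 and 36005 counts, followed by the microRNA genes Mir429 (895, 1061 and 869 counts) and Mir3064 (482, 927 and 715 counts).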

How the results depend on the processing

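Genes called between WT and the deletion carriers numbered 1 (Taar6). They numbered 5 in DESeq2's Wald test, all 5 of them Taar genes, and 2 with the replicate block, both of them Taar genes (Taar6 and Taar9). Leaving out 1 library gave 0 to 1 genes, and 0 to 1 Taar genes, with 0 only without WT_2. The log2 difference of Taar6 lay between 1.84 and 1.91 in all 13 alternatives and its adjusted p between 9.99e-19 and 0.0516. The replicate numbers were not taken as pairs, because deviations correlated over 16157 genes at 0.673, 0.45 and 0.608 between same-numbered WT and het libraries but at 0.516, 0.293 and -0.0968 between WT and homo. List and OR genes were called under none of these settings.

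The share of OR level in the highest 10% of OR genes was 35.0% in TPM, 34.97% to 35.4% with 1 WT library left out and 34.2% by coding length, an alternative chosen after seeing the data. The Gini coefficient was 0.476, 0.480 from counts without length and 0.451 without pseudogenes and low genes. The ratio of the 90th to the 10th percentile was 10.4, and 12.3 from counts. Length decided the share of receptor level from Taar genes, 3.07% in TPM, 1.14% from counts and 1.03% by coding length, and the summed OR level, 4827 TPM by exon length and 14793 TPM by coding length. With the longest transcript in place of the merged exons, 23 of 28 list sums and 17 of the 25 leading genes moved by less than the SD between libraries. Leaving out WT_3 moved the CV of 11 of 28 lists.

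Counting error was 12.3% at the median OR count, below the median CV of 22.9% between libraries. Groups of 3 libraries are too small for the formal outlier test, which was not run.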
